A study of Mus musculus with 18 samples.

Results

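The cytochrome P450 enzymes of families 1, 2 and 3 were examined in liver and kidney of mice given the hepatotoxin D-galactosamine. The members were all genes whose symbol begins with Cyp1, Cyp2 or Cyp3, followed by a subfamily letter and a number. One probe set stood for each gene, the brightest over 18 arrays among the sets annotated to a single gene. This gave 43 of 18193 named genes, and another 30 genes on the arrays belong to other P450 families. Galactosamine had been injected intraperitoneally at 4.5 g per kg into male C57BL6 mice of 20 g, and organs were taken at 24 h or at 48 h. The sham mice received saline and were killed at 24 h, so no saline group stands beside the 48 h mice. Each of the 6 groups, which were galactosamine 24 h, galactosamine 48 h and sham in liver and again in kidney, held 3 arrays lettered A to C. The organs were flushed in place before RNA was extracted from pieces of liver and from whole kidneys, so each array read a mixture of cell types.

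Cytochrome P450 enzymes are haem proteins of the endoplasmic reticulum that insert oxygen into lipophilic molecules, using electrons passed on by P450 oxidoreductase and cytochrome b5. Families 1 to 3 carry out most of the first step of drug and toxicant metabolism, and several members also act on steroids, bile acids, vitamin D and arachidonic acid. In liver they are made chiefly by hepatocytes, many of them most strongly around the central vein, and their genes respond to the receptors AhR, CAR and PXR. In kidney the proximal tubule holds most of the P450 activity, including arachidonic acid epoxygenases.

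The 43 members fell into 14 subfamilies. CYP2C had 11 members, CYP2D 8, CYP2J 5, CYP3A 5, CYP2B 4 and CYP1A 2, and CYP1B, CYP2A, CYP2E, CYP2F, CYP2G, CYP2R, CYP2S and CYP2U had 1 each. In the RefSeq annotation of GRCm38.p6 all 11 CYP2C genes lie on chromosome 19, all 8 CYP2D genes on chromosome 15, all 5 CYP2J genes on chromosome 4, all 5 CYP3A genes on chromosome 5 and both CYP1A genes on chromosome 9. Neighbours within such clusters can be close in sequence, which was not measured here. The probe sets of 7 members carry a suffix that marks probes shared between transcripts or genes. The suffix for probes shared between genes was on the sets of Cyp2b10, Cyp2c23 and Cyp2c65. Their readings cannot be assigned to 1 paralog with certainty. The suffix for probes shared between transcripts of 1 gene was on the sets of Cyp1a1, Cyp2d13, Cyp2d9 and Cyp2f2.

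Promoters of 5 members are shown because these genes mark the range of behaviour in the injured liver. Cyp2e1, the ethanol and acetaminophen oxidising enzyme, and Cyp3a11, a target of PXR and the chief mouse counterpart of human CYP3A4, were not called at either time. Cyp2c70, which makes the muricholic acids of mouse bile, and Cyp1a2, which oxidises caffeine and arylamines, were lower at 48 h. Cyp2r1, a hydroxylase that turns vitamin D into its circulating form, was lower at 24 h. Each sequence is the 250 bases before the transcript start used in the RefSeq GRCm38.p6 promoter table, read 5′ to 3′ along the gene. For Cyp2r1 that start lies inside the annotated gene span, which covers 76 of the bases shown, and for the other genes the window ends where the span begins. The windows are chr7:140763569-140763818 on the plus strand for Cyp2e1, chr5:145879855-145880104 on the minus strand for Cyp3a11, chr19:40187287-40187536 on the minus strand for Cyp2c70, chr9:57683656-57683905 on the minus strand for Cyp1a2 and chr7:114562973-114563222 on the minus strand for Cyp2r1. Capitals mark TATAAA, its reverse TTTATA, and CAAAGTCCA, a binding motif of the hepatocyte factor HNF4A.
Cyp2e1: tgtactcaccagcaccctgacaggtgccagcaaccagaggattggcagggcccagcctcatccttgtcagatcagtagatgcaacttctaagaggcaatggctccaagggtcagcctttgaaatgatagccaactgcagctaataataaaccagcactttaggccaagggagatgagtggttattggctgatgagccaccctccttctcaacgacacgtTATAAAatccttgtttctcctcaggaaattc
Cyp3a11: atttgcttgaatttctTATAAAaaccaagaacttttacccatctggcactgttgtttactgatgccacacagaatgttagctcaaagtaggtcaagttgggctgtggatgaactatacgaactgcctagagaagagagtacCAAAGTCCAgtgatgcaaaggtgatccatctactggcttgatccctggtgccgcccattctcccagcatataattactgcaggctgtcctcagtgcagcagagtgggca
Cyp2c70: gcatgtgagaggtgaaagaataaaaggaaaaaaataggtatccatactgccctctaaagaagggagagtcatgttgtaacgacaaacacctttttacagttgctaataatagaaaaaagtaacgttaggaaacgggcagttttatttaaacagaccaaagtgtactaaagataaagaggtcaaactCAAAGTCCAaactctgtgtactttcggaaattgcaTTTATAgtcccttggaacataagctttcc
Cyp1a2: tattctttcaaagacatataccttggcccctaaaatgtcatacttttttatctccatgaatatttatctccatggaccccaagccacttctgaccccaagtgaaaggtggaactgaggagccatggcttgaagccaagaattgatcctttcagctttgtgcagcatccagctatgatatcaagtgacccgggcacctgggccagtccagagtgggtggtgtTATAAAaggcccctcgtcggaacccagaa
Cyp2r1: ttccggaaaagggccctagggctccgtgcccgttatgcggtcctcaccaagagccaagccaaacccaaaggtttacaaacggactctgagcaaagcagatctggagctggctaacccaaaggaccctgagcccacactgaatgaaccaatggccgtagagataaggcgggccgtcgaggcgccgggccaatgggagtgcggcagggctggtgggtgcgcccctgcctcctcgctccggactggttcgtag
A TATAAA lay 25 bases from the start of Cyp2e1 and 23 bases from that of Cyp1a2, and Cyp2c70 had the reverse letters at 23 bases. Cyp3a11 had it only 228 bases away. CAAAGTCCA lay 100 bases from the start of Cyp3a11 and 55 bases from that of Cyp2c70, and the Cyp2r1 window held none of the motifs searched.

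Promoter windows were found in the RefSeq table for 35 of the 43 members, and Cyp2c23, Cyp2c54, Cyp2d12, Cyp2d13, Cyp2d22, Cyp2d34, Cyp2g1 and Cyp2u1 had none there. A member counted once if any of its windows held the motif, and the 35 members had 38 windows. The shares of all genes are over single windows, so the units differ. On either strand, TATAAA was present for 17 of the 35 members (48.6%), against 12.4% of 32851 windows of the same length over all genes. CAAAGTCCA was present for 5 members (14.3%), against 0.384% of all windows, namely Cyp2c65, Cyp2c68, Cyp2c70, Cyp3a11 and Cyp3a16. GCGTG, the core to which the AhR binds, was present for 6 members (17.1%), against 28.2% of all windows. These are matches of letters, and members of a gene cluster share sequence, so the matches are not independent of each other.

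Values are log2 gcRMA signals. Readings of the same probe set can be compared between arrays, but the level of 1 gene cannot be set against that of another. The lowest value in the table was 2.21, and a reading less than 1 above it is called at the floor. Array medians lay between 2.36 and 2.43, and arrays of a group correlated at 0.983 to 0.998. Many low readings are the same value to the last digit in several arrays (89.5% of readings up to 3, against 0.59% of those above 10), so a small spread at low values is no measure of precision. Liver 48 h array C stood apart: the difference between 3' and 5' probes of actin was 2.56 there, against 1.48 to 1.95 in the other liver arrays, and for Gapdh it was 0.81 against 0.21 to 0.35. The counts of members called in liver, in the organ comparison and within 2-fold at each time are also given without it, and other counts at 48 h include it. The 11 hepatocyte markers averaged 14.85 to 15.52 in the liver arrays and 7.14 to 7.59 in the kidney arrays, and 10 proximal tubule markers averaged 13.71 to 14.03 in the kidney arrays and 3.44 to 3.96 in the liver arrays, so the organ labels matched their markers.

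A gene was tested in an organ if it read above the array median in at least 3 of the 9 arrays there, and it was called if limma's Benjamini-Hochberg adjusted p over all tested genes was under 0.05. Of the 43 members, 36 were tested in liver, 30 in kidney, 29 in both and 6 in neither. The 7 not tested in liver were Cyp2b13, Cyp2b19, Cyp2c39, Cyp2c65, Cyp2d34, Cyp2j9 and Cyp3a16. At the floor were 9 members in all 18 arrays, 10 in all liver arrays and 19 in all kidney arrays.

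RNA of more of these enzymes was read in sham liver than in sham kidney. All 3 sham arrays read above the floor for 29 members in liver and for 18 in kidney, and for 15 in both. Of 37 members tested in either organ, 24 were higher in sham liver than in sham kidney and 6 were lower, so 81.1% were called, against 47.8% of 12412 genes, 19% as higher and 28.8% as lower (limma). The median difference between sham liver and sham kidney was 3.17 over the members and -0.05 over all genes tested. Centring each array on its 75th percentile moved the median of all genes to 0.34 and the number of members called to 35.

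The CYP2C and CYP3A genes were mainly liver genes. Of the 11 CYP2C members, 8 read above the floor in sham liver and 4 in sham kidney, and of the 5 CYP3A members 3 did so in liver and 0 in kidney. Cyp1a2 read 13.97, 13.95 and 14.03 in sham liver, against 2.23, 2.23 and 2.21 in sham kidney, at least 3476-fold higher in liver. Cyp3a11 averaged 13.38 ± 0.33 in sham liver and was at the floor in every kidney array. Cyp2c23, whose rat counterpart is an arachidonic acid epoxygenase, was read in both organs, at 14.09 ± 0.17 in sham liver and 9.10 ± 0.39 in sham kidney (SD, n = 3 each), a 31.8-fold difference. Cyp2d22, often taken as the mouse counterpart of human CYP2D6, was 36.1-fold higher in sham liver, at 11.97 ± 0.14 against 6.80 ± 0.12 in sham kidney.

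Cyp2e1 read near the top of the scale in both organs. It averaged 15.69 ± 0.05 in sham liver and 15.16 ± 0.17 in sham kidney (SD, n = 3 each), a difference of 0.53 or 1.45-fold (limma adjusted p = 4.36e-04). Cyp2d26, Cyp2d9 (a testosterone hydroxylase of male mice) and Cyp2j6 were also read in both organs, and were 4.79-fold, 9.002-fold and 3.84-fold higher in sham liver. The 6 members lower in liver were Cyp1b1, Cyp2d12, Cyp2j5, Cyp2j11, Cyp2j13 and Cyp2s1, so 3 of the 5 CYP2J genes were higher in sham kidney. Cyp2j5, an arachidonic acid epoxygenase, averaged 13.92 ± 0.07 in sham liver and 15.01 ± 0.06 in sham kidney, a difference of -1.09 (adjusted p = 2.24e-04). Cyp2d12 averaged 6.65 ± 0.19 in sham liver and 11.07 ± 0.46 in sham kidney, 21.4-fold lower in liver. Cyp2j13 and Cyp2j11 were at or near the floor in sham liver (3.39 ± 0.16 and 3.16 ± 0.45) and read 12.32 ± 0.22 and 11.26 ± 0.17 in sham kidney. Cyp2c55 was called higher in liver although only 1 of its 3 sham liver arrays was above the floor, and this call held in 3 of 18 fits that left out 1 array. The other 29 calls held in all 18.

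**Figure D1:**
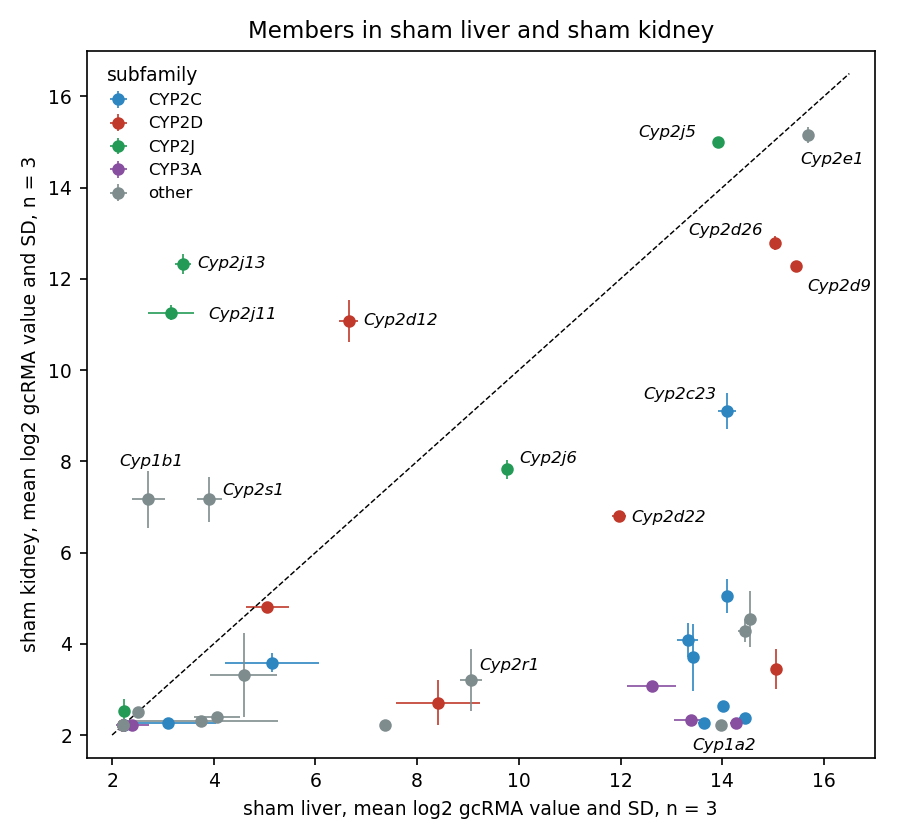
Each point is 1 member, with its mean log2 gcRMA value in sham liver on the horizontal axis and in sham kidney on the vertical axis, bars showing the SD over 3 arrays and colour the subfamily. The dashed line marks equal readings in both organs; a cluster of members lies at the lower right, high in liver and near the kidney floor, while Cyp2j13, Cyp2j11, Cyp2d12, Cyp1b1 and Cyp2s1 lie far above it and Cyp2e1 and Cyp2j5 near its top.

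In the liver at 24 h no member was higher than sham and 8 of 36 were lower (22.2%). Over all 12071 genes tested in liver, 32.9% were called, 15% as lower and 17.9% as higher (limma). The median difference from sham was -0.24 over the members and 0.005 over all genes. Bright genes as a class also lay below sham, and their medians are given below. Centring on the 75th percentile moved the median of all genes to -0.15 and left 10 members called. By the brightest sets, the deepest falls were those of Cyp2r1, Cyp2u1 and Cyp2d12, none of them among the readings above 10. A dimmer set of Cyp2j5 lay further below sham, with a difference of -4.81 from a sham mean of 10.68. The tissue was taken whole, so fewer cells of a type and less RNA per cell cannot be told apart.

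Cyp2r1, the vitamin D hydroxylase on chromosome 7, read 5.38, 5.93 and 5.36 in the 24 h livers, 8.71, 8.57 and 9.87 in the 48 h livers and 9.09, 9.27 and 8.82 in the sham livers. All 3 of the 24 h arrays lay below every other liver array, and the 48 h arrays lay on both sides of the sham arrays. The 24 h difference from sham was -3.51 ± 0.36 (SE), 11.4-fold lower (limma adjusted p = 6.64e-04). At 48 h the difference was -0.01, with a 95% interval of -0.85 to 0.84.

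Cyp2u1, a fatty acid hydroxylase encoded on chromosome 3, was lower at both times. It read 4.13, 5.11 and 5.15 at 24 h, 3.82, 3.71 and 2.84 at 48 h and 7.37, 7.28 and 7.45 in sham livers. None of the 3 groups overlapped, and the 48 h arrays were the lowest, with array C at the floor. The difference from sham was -2.57 ± 0.35 (SE) at 24 h, 5.93-fold lower (limma adjusted p = 0.0018), and -3.91 ± 0.35 at 48 h, at least 15.0-fold lower (adjusted p = 0.00365).

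Cyp2d12 read 5.22, 4.38 and 5.56 at 24 h, 5.85, 5.94 and 6.95 at 48 h and 6.68, 6.82 and 6.45 in sham livers. Its 24 h arrays lay below all sham arrays, while the 48 h arrays overlapped them. The 24 h difference was -1.60 ± 0.39 (SE), 3.02-fold lower (limma adjusted p = 0.0184), and the call was lost without sham array A or B, where the adjusted p reached 0.0626. At 48 h the difference was -0.41 (adjusted p = 0.577).

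By the brightest set of each gene, the remaining 24 h calls were smaller than 2-fold. A dimmer set of Cyp2j5 differed by -4.81, as described below. Cyp2j5 differed from sham by -0.86 (limma adjusted p = 0.0366), Cyp2c68 by -0.72 (adjusted p = 0.0317), Cyp2j6 by -0.57 (adjusted p = 0.0352; -0.09 and not called by its second set) and Cyp2a12, a steroid and bile acid hydroxylase, by -0.36 (adjusted p = 0.0328). Cyp2j13 was called at -0.57, but it read 2.81 to 2.83 at 24 h and 3.21 to 3.49 in sham, all close to the floor. Leaving out 1 array at a time, 2 of the 8 calls stood in every fit, those of Cyp2r1 and Cyp2u1. The number of members called was 3 without 24 h array B, 4 without 24 h array C, 4 without 48 h array A, 3 without sham array A, 2 without sham array B, 4 without sham array C and 10 without 48 h array C, of which 1 was higher than sham.

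At 48 h 10 of 36 members were lower than sham and none higher (27.8%), while 10.2% of all genes were called, 3.94% as lower and 6.24% as higher (limma). The median difference was -0.31 over the members and 0.03 over all genes, and medians of genes of like brightness are given below. The lower members were Cyp1a2, Cyp2a12, Cyp2c23, Cyp2c50, Cyp2c54, Cyp2c70, Cyp2d10, Cyp2f2, Cyp2j5 and Cyp2u1. Of these, 3 had also been called lower at 24 h, namely Cyp2a12, Cyp2j5 and Cyp2u1. Without 48 h array C, 12 members were called lower, and the differences of the 10 lay between -3.60 and -0.48. Without sham array B or without sham array C the number was 6.

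**Figure D2:**
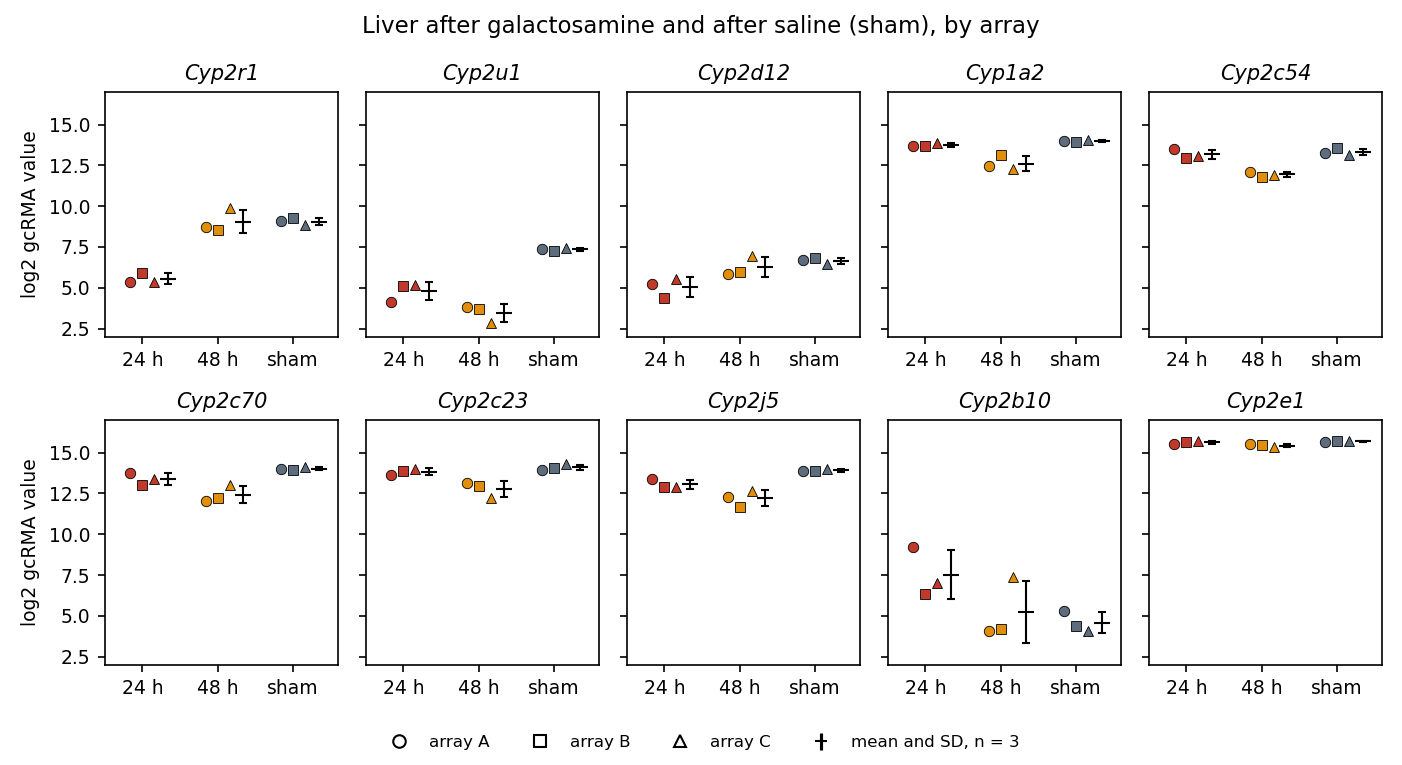
Log2 gcRMA values of 10 members in the liver at 24 h, at 48 h and in sham, 1 symbol per array, with the mean and SD of 3 arrays as a bar. Cyp2r1 is low at 24 h and back at 9.05 ± 0.71 at 48 h, Cyp2u1 is low at both times, Cyp1a2, Cyp2c54, Cyp2c70, Cyp2c23 and Cyp2j5 are lowest at 48 h, Cyp2b10 is scattered, and Cyp2e1 lies between 15.32 and 15.74 throughout.

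The CYP2C genes made up 4 of the 10. Cyp2c54, an arachidonic acid epoxygenase, read 13.51, 12.94 and 13.07 at 24 h, 12.09, 11.82 and 11.94 at 48 h and 13.24, 13.56 and 13.16 in sham livers. The 48 h arrays lay below all others, and the 24 h arrays overlapped sham. The 48 h difference was -1.37 ± 0.18 (SE), 2.59-fold lower (limma adjusted p = 0.00749). Cyp2c70, the muricholic acid enzyme, read 13.75, 13.01 and 13.39 at 24 h, 12.02, 12.23 and 13.02 at 48 h and 13.98, 13.93 and 14.11 in sham. Its 24 h arrays already lay below every sham array, with a difference of -0.62 that was not called (adjusted p = 0.142). The 48 h difference was -1.59 ± 0.28, 3.00-fold lower (adjusted p = 0.0177). That call was lost without 48 h array A or B or sham array B or C, with an adjusted p of up to 0.0622.

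Cyp2c23 read 13.60, 13.89 and 14.02 at 24 h, 13.15, 12.97 and 12.19 at 48 h and 13.94, 14.05 and 14.28 in sham livers. The 48 h arrays were the lowest, array C the furthest. The difference was -1.32 ± 0.25 (SE), 2.50-fold lower (limma adjusted p = 0.0221), and -1.03 without array C. The call was lost without sham array B or C, where the adjusted p reached 0.0761. Cyp2c50, another epoxygenase of this subfamily, fell by less, with a difference of -0.81 or 1.75-fold (adjusted p = 0.0100).

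Among the other subfamilies, Cyp1a2 read 13.67, 13.72 and 13.87 at 24 h, 12.43, 13.12 and 12.26 at 48 h and 13.97, 13.95 and 14.03 in sham livers. The 24 h arrays lay just below sham, with a difference of -0.23 (limma adjusted p = 0.448), and the 48 h arrays lay below both. The 48 h difference was -1.38 ± 0.21 (SE), 2.61-fold lower (adjusted p = 0.0104), and it held in all 9 fits with 1 array left out. Cyp2f2, which activates naphthalene, read 13.77, 14.01 and 13.31 at 48 h and 14.47, 14.52 and 14.66 in sham, 1.81-fold lower (adjusted p = 0.0239). Cyp2a12 and Cyp2d10 were lower by small amounts, -0.61 (adjusted p = 0.0151) and -0.48 (adjusted p = 0.00945). The calls of Cyp1a2, Cyp2c50, Cyp2c54, Cyp2d10, Cyp2j5 and Cyp2u1 stood in every fit that left out 1 array.

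Cyp2j5 was read by a pair of probe sets that disagreed in size and in course. The brighter set read 13.38, 12.92 and 12.87 at 24 h, 12.29, 11.67 and 12.64 at 48 h and 13.86, 13.89 and 13.999 in sham livers. By this set the gene was lower at 24 h, by -0.86, and lower again at 48 h, by -1.72 ± 0.25 (SE), 3.29-fold (limma adjusted p = 0.00981). The dimmer set read 5.74, 6.57 and 5.29 at 24 h, 8.54, 8.32 and 7.85 at 48 h and 10.63, 10.73 and 10.68 in sham. Both sets were below sham at both times without overlap, but the dimmer one was lowest at 24 h and the brighter one at 48 h. With every probe set fitted separately, 29.3% of sets were called at 24 h, 7.92% at 48 h and 24.1% between 48 h and 24 h in liver (limma). In that fit the dimmer set differed from sham by -4.81 at 24 h (adjusted p = 1.70e-04) and by -2.44 at 48 h (adjusted p = 0.00869). Between 48 h and 24 h it differed by 2.37 (adjusted p = 0.00296), against -0.86 for the brighter set, so the direction of that comparison depends on the set read.

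**Figure D3:**
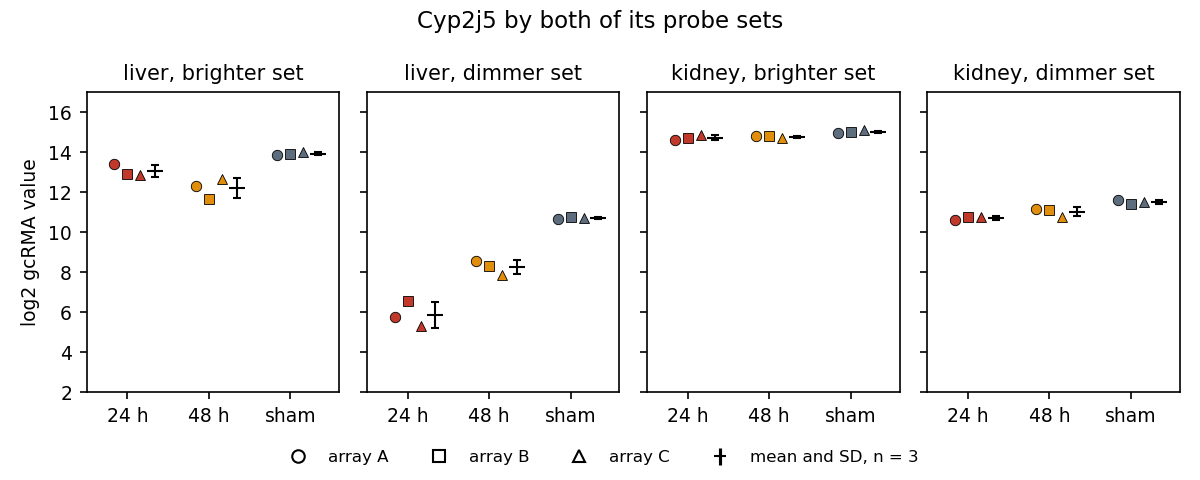
Both Cyp2j5 probe sets in liver and in kidney, as log2 gcRMA values by array with the mean and SD of 3 arrays. In liver the dimmer set reads 5.29 to 6.57 at 24 h and 10.63 to 10.73 in sham, while the brighter set spans 12.87 to 13.38 and 13.86 to 13.999; in kidney both sets move by less than 1.

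Between 48 h and 24 h in liver, 2 members were higher at 48 h and 10 lower (33.3% of 36), while 27.8% of all genes were called, 14.6% as higher and 13.1% as lower (limma). Cyp2r1 was 11.3-fold higher at 48 h (adjusted p = 8.81e-04). Cyp3a25 was higher by 0.64 (adjusted p = 0.0366), a call lost in 7 of 9 fits with 1 array left out, among them the one without 48 h array C (adjusted p = 0.0779). The lower calls of Cyp2j5 and Cyp2c70 were kept in only 1 and 2 of the 9 fits, with adjusted p of up to 0.117 and 0.121. The lower members were Cyp1a2, Cyp2c23, Cyp2c37, Cyp2c50, Cyp2c54, Cyp2c70, Cyp2d10, Cyp2f2, Cyp2j5 and Cyp2u1. Cyp2c54 differed by -1.22 (adjusted p = 0.00291), Cyp1a2 by -1.15 (adjusted p = 0.0065) and Cyp2f2 by -0.94 (adjusted p = 0.00635), all after 24 h values that had not been called different from sham. Cyp2u1 differed by -1.34 (adjusted p = 0.027), and by -1.03 without 48 h array C (adjusted p = 0.0544). Without that array 11 members were called.

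Persistence of the enzymes was read in RNA, and protein or activity was not measured. The 29 members read above the floor in every sham liver array were sorted by the 95% interval of their difference. An interval wholly between -1 and 1 places a member within 2-fold of sham. At 24 h 18 of the 29 did so (62.1%), against 37.8% of 9992 genes above the floor, and 3 fell by at least 2-fold (10.3%, against 12.2%). At 48 h 14 did so (48.3%, against 51.2%), and 6 fell by at least 2-fold (20.7%, against 2.45%). Without 48 h array C the numbers within 2-fold were again 18 and 14. At both times 12 members were within 2-fold (41.4%, against 29.6%), and 9 were so at neither.

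The 12 were Cyp2a12, Cyp2c37, Cyp2d9, Cyp2d10, Cyp2d13, Cyp2d22, Cyp2d26, Cyp2d40, Cyp2e1, Cyp2s1, Cyp3a13 and Cyp3a25, so 6 of the 7 CYP2D members that were above the floor persisted. Cyp2d40 and Cyp2s1 belong here only by low readings. Cyp2d40 read 4.81 in most arrays, the same value to the last digit in 6 of 9 liver arrays, and Cyp2s1 read 3.69 in 4 of them, so their intervals say little. The other 10 had no repeated reading in liver.

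Cyp2e1 read 15.55, 15.65 and 15.72 at 24 h, 15.51, 15.47 and 15.32 at 48 h and 15.64, 15.74 and 15.70 in sham livers. Its 48 h arrays were the lowest without overlap, yet the difference was only -0.26 (limma adjusted p = 0.069), and at 24 h it was -0.05. Cyp2d26 read 14.95, 14.91 and 14.77 at 24 h, 14.90, 15.02 and 14.42 at 48 h and 14.96, 15.05 and 15.13 in sham, with differences of -0.17 and -0.26. Cyp2d9 read 14.92, 15.23 and 15.31 at 24 h, 15.07, 15.31 and 15.01 at 48 h and 15.36, 15.51 and 15.51 in sham, with differences of -0.31 and -0.33. All 3 read above 14 in every liver array, near the top of the scale. Over all genes read by a bright set (sham mean of at least 13) and a dim one (8 to 12), either of which differed from sham by at least 1, the bright set moved less in 32 of 36 at 24 h and 23 of 25 at 48 h. The part of brightness in the small differences of these members was not tested.

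Cyp2d10 read 14.88, 14.95 and 14.98 at 24 h, 14.51, 14.66 and 14.60 at 48 h and 15.10, 14.97 and 15.12 in sham livers. Cyp2a12 read 14.07, 14.15 and 14.03 at 24 h, 13.83, 14.01 and 13.69 at 48 h and 14.31, 14.48 and 14.55 in sham. Both were called lower at 48 h and still lay within 2-fold of sham. Cyp2c37 read 13.92, 13.50 and 13.77 at 24 h, 13.29, 13.10 and 12.98 at 48 h and 13.61, 13.77 and 13.54 in sham. It overlapped sham at 24 h and lay below it at 48 h, by -0.51 (limma adjusted p = 0.0544). Cyp2d22 read 11.80, 11.53 and 11.77 at 24 h, 11.69, 11.70 and 11.27 at 48 h and 11.82, 12.06 and 12.04 in sham, with differences of -0.27 and -0.42.

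Of the CYP3A genes, Cyp3a25 read 14.46, 14.25 and 13.74 at 24 h, 14.67, 14.90 and 14.81 at 48 h and 14.20, 14.42 and 14.22 in sham livers. Its 48 h arrays lay above all others, with a difference of 0.52 (limma adjusted p = 0.128). Cyp3a13 read 12.57, 12.45 and 12.38 at 24 h, 12.27, 12.67 and 13.12 at 48 h and 12.11, 12.66 and 13.06 in sham, and all groups overlapped. Cyp2d13 read 8.50, 8.50 and 8.28 at 24 h, 8.28, 8.40 and 8.33 at 48 h and 7.47, 8.73 and 9.03 in sham, so its sham arrays spanned both treated groups. A dimmer second set of Cyp2d13 differed from sham by -0.85 at 24 h (adjusted p = 0.0439). Cyp3a11 just missed the interval rule. It read 14.39, 13.62 and 13.18 at 24 h, 13.80, 13.97 and 14.05 at 48 h and 13.68, 13.45 and 13.02 in sham, with differences of 0.35 (adjusted p = 0.444) and 0.56 (adjusted p = 0.32) and a 48 h interval of -0.17 to 1.29.

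**Figure D4:**
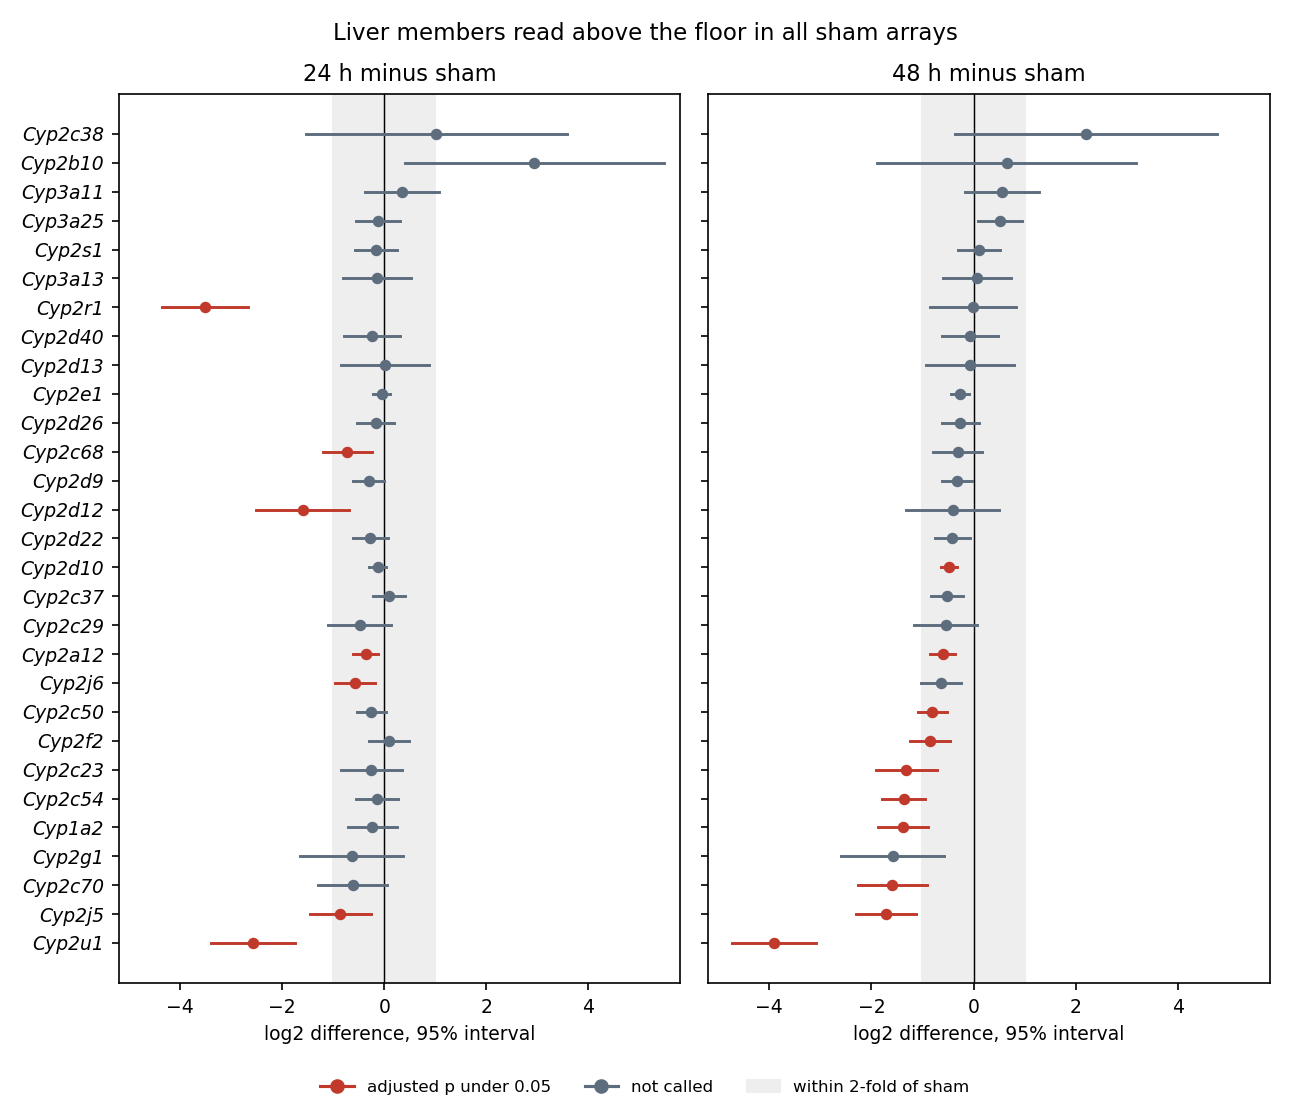
Log2 differences from sham liver at 24 h (left) and 48 h (right) with 95% intervals for the 29 members above the floor in every sham liver array, ordered by the 48 h difference. Red marks calls at an adjusted p under 0.05 and grey shading marks 2-fold either way; 12 members keep both intervals inside the shading, and the lowest 48 h points are Cyp2u1, Cyp2j5 and Cyp2c70.

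The members with bright sham readings were compared with all genes of the same brightness. Of the 11 members whose sham mean was 14 or more, 9 were within 2-fold at 24 h and 7 at 48 h, against 66.5% and 69.5% of 236 such genes. In this class 0 members fell by at least 2-fold at 24 h and 2 at 48 h, against 15.7% and 6.36% of the genes. The median difference of its members was -0.25 at 24 h and -0.48 at 48 h, against -0.26 and -0.32 over its genes. Of the 7 members between 12 and 14, 4 were within 2-fold at 24 h and 2 at 48 h, against 49.3% and 57.5% of 685 genes. Of these members 0 and 3 fell by at least 2-fold, against 24.8% and 8.47%. Their median difference was -0.15 at 24 h and -0.54 at 48 h, against -0.36 and -0.19 over the 685 genes.

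A few members varied widely between the arrays of a group. Cyp2b10, the classical target of CAR, read 9.23, 6.35 and 6.998 at 24 h, 4.08, 4.20 and 7.41 at 48 h and 5.32, 4.36 and 4.07 in sham livers. All 24 h arrays lay above sham, with a difference of 2.94 that was not called (limma adjusted p = 0.077), and at 48 h array C alone was high. Its second set differed by 2.91 at 24 h (adjusted p = 0.114) and the dimmest set by 0.79, with array A again the highest of the 24 h arrays in each. Cyp2c38 read 8.09, 5.01 and 5.39 at 24 h, 5.798, 7.16 and 9.06 at 48 h and 4.58, 4.63 and 6.21 in sham, with differences of 1.02 (adjusted p = 0.526) and 2.20 (adjusted p = 0.264). Cyp2g1, an enzyme of the olfactory epithelium, differed by -1.58 at 48 h with all 48 h arrays at the floor (adjusted p = 0.0625). Cyp1a1, the most inducible AhR target, was at the floor in all 18 arrays, with readings of up to 2.90 at 24 h.

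The lists of genes on which these enzymes depend are read against the 32.9% of all genes called in liver at 24 h and the 10.2% at 48 h. Of 5 redox partners and epoxide-handling genes tested, 2 rose and 1 fell at 24 h (60%), and 1 rose and 1 fell at 48 h (40%). Ephx1, the microsomal epoxide hydrolase, rose by 1.47 (limma adjusted p = 0.0065), Pgrmc1 by 0.20, and Cyb5b fell by 1.81. At 48 h Ephx1 was still higher, by 1.38, and Cyb5r3, a cytochrome b5 reductase, fell by 1.08. The list median was -0.01 at 24 h and -0.18 at 48 h.

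Of 12 genes of haem synthesis and breakdown tested, 1 rose and 6 fell at 24 h (58.3%, against 32.9% of all genes), with a median of -0.78. Hmox1, the haem oxygenase, rose by 3.67 (limma adjusted p = 4.40e-04), while Alad, an early enzyme of haem synthesis, fell by 2.10 (adjusted p = 0.00118) and Blvra, a biliverdin reductase, by 1.93. At 48 h 2 rose and 1 fell (25%, against 10.2%), with a median of 0.09: Blvra and Blvrb were higher by 1.47 and 1.39, and Alas2 was lower by -1.70.

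Of 12 receptors and partners tested, 4 fell and none rose at 24 h (33.3%), with a median of -0.44. Of all genes 32.9% were called, 15% as lower. Nr1i3, which encodes CAR, fell by 1.98 (limma adjusted p = 0.00253), Nr1h3, the liver X receptor, by 0.92 and Nr0b2, the bile acid responsive repressor SHP, by 1.79. At 48 h 1 of 12 was called (8.33%, against 10.2%), Nr1i3, which was now higher than sham by 1.24 (adjusted p = 0.0411). Between 48 h and 24 h, 4 were higher and 1 lower, and Nr1i3 differed by 3.21. Of 16 liver-enriched and circadian factors tested, 1 rose and 3 fell at 24 h (25%, below the 32.9% of all genes), with a median of -0.10. At 48 h 2 fell (12.5%, against 10.2% of all genes called, 3.94% as lower), with a median of -0.20. Dbp, a circadian activator of P450 genes, fell by 3.24 at 24 h and by 1.85 at 48 h, Tef fell by 0.92 and 1.08, and Nfe2l2, which encodes NRF2, rose by 1.80 at 24 h. Of 2 other AhR target genes tested, Nqo1 was higher by 2.36 at 24 h and 2.33 at 48 h, and it is also a target of NRF2. Of the 4 members known to be higher in female than in male liver that the arrays name, 2 were tested and neither was called.

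Markers of other cells and of liver zones moved with these groups, and their part in the P450 results was not tested. Among hepatocyte markers 2 of 11 fell at 24 h (18.2%) and 4 at 48 h (36.4%). Of all genes 32.9% were called at 24 h, 15% as lower, and 10.2% at 48 h, 3.94% as lower. At 48 h Hpd fell by 0.68, Serpinc1 by 0.52 and Ahsg by 0.39. The mean level of the hepatocyte markers was 15.04 to 15.20 at 24 h, 14.85 to 15.24 at 48 h and 15.45 to 15.52 in sham. Markers of pericentral hepatocytes fell in 5 of 12 cases at 24 h (41.7%, against 15% lower) and 4 at 48 h (33.3%, against 3.94%). Their mean levels were 8.59 to 8.95, 8.92 to 9.33 and 9.71 to 10.10 in 24 h, 48 h and sham livers. The smallest adjusted p-values were those of Oat, Lhpp and Glul at 24 h (differences of -1.76, -2.95 and -1.54) and of Rgn, Rhbg and Gulo at 48 h (-1.37, -1.22 and -1.16). The deepest fall at 24 h was that of Slc1a2, at -3.91, named here after its value was seen. Periportal markers fell in 6 of 11 cases at 24 h (54.5%, against 15% lower) and 2 at 48 h (18.2%, against 3.94%). Their mean levels were 11.47 to 11.86, 12.07 to 12.41 and 12.57 to 12.73 in 24 h, 48 h and sham livers. Apof, Hal and Etnppl had the smallest adjusted p-values at 24 h (differences of -1.82, -3.31 and -2.05) and Etnppl and Cps1 were lower at 48 h (-2.15 and -0.48). Axin2 was at the floor in the 48 h and sham livers, and Ass1 in the 24 h livers.

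Macrophage markers were higher in 7 of 12 cases at 24 h (58.3%) and 3 at 48 h (25%). Endothelial markers were higher in 8 of 12 (66.7%) and 2 of 12 (16.7%). Of all genes 32.9% were called at 24 h, 17.9% as higher, and 10.2% at 48 h, 6.24% as higher. C1qb, Cd5l and Cd68 were higher by 1.51, 1.29 and 3.10 at 24 h, and Lyve1, Stab1 and Esam by 4.02, 1.10 and 1.40. Mean macrophage levels were 9.40 to 9.71 at 24 h, 9.07 to 9.38 at 48 h and 7.69 to 8.64 in sham, and mean endothelial levels were 6.86 to 7.95, 6.43 to 6.95 and 6.001 to 6.12. None of 6 cholangiocyte markers was called at either time by limma.

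In the kidney few members were called, so their shares move with a single member and cannot be ranked against those of all genes. The tested members included Cyp1a1, Cyp2c37, Cyp2c50, Cyp2c70, Cyp2g1 and Cyp2j9, which were at the floor in every kidney array. Such readings limit the counts and medians given next. At 24 h 1 of 30 tested members was higher than sham and none lower (3.33%), against 5.31% of 12003 genes, 2.21% as higher and 3.1% as lower (limma). Centring on the 75th percentile gave 1 higher and 1 lower. At 48 h 2 were higher and 1 lower (10%), against 2.69% of all genes, 1.29% as higher and 1.4% as lower. Between 48 h and 24 h 1 was higher (3.33%), against 1.61%, with 0.958% higher and 0.65% lower. The median difference from sham was 0.00 at 24 h and 0.05 at 48 h, and 0 over all genes at both times. The members called were Cyp2d22 and Cyp2d26, which were higher, and Cyp2j13, which was lower.

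Cyp2d22 read 8.47, 8.13 and 8.28 in the 24 h kidneys, 8.07, 8.17 and 8.50 in the 48 h kidneys and 6.78, 6.92 and 6.69 in the sham kidneys. Every treated array lay above every sham array, and the treated groups overlapped. The difference from sham was 1.50 ± 0.14 (SE) at 24 h, 2.82-fold higher (limma adjusted p = 0.0121), and 1.45 ± 0.14 at 48 h, 2.73-fold higher (adjusted p = 0.00955). With every set fitted separately, 4.46% were called at 24 h, 2.24% at 48 h and 1.67% between 48 h and 24 h in kidney. In that fit a second set gave larger differences, 2.31 at 24 h (adjusted p = 0.0196) and 2.93 at 48 h (adjusted p = 0.0122), with 4.18, 4.26 and 4.96 in sham kidneys. The 48 h call of the brighter set was lost without sham array A (adjusted p = 0.0507).

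Cyp2d26 read 13.12, 12.92 and 13.18 at 24 h, 14.13, 14.15 and 14.35 at 48 h and 12.60, 12.86 and 12.90 in sham kidneys. The 48 h arrays lay above all others, and the 24 h arrays just above sham. At 24 h the difference was 0.29 (limma adjusted p = 0.166), and at 48 h 1.42 ± 0.11 (SE), 2.68-fold higher (adjusted p = 0.00457). Between 48 h and 24 h it was 2.20-fold higher (adjusted p = 0.0169), a call lost without 48 h array A or B, when the adjusted p reached 0.0655 and no member was called.

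Cyp2j13 read 11.41, 11.81 and 11.98 at 24 h, 11.01, 11.11 and 11.15 at 48 h and 12.12, 12.28 and 12.55 in sham kidneys. No groups overlapped, and the 48 h arrays were the lowest. The 24 h difference was -0.59 (limma adjusted p = 0.0865) and the 48 h difference -1.23 ± 0.16 (SE), 2.35-fold lower (adjusted p = 0.0234). The 48 h call was lost in 5 of 9 fits with 1 array left out, namely those without any of the 48 h arrays or without sham array A or B, with an adjusted p of up to 0.0869. The number of members called at 48 h was 1 without sham array A.

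**Figure D5:**
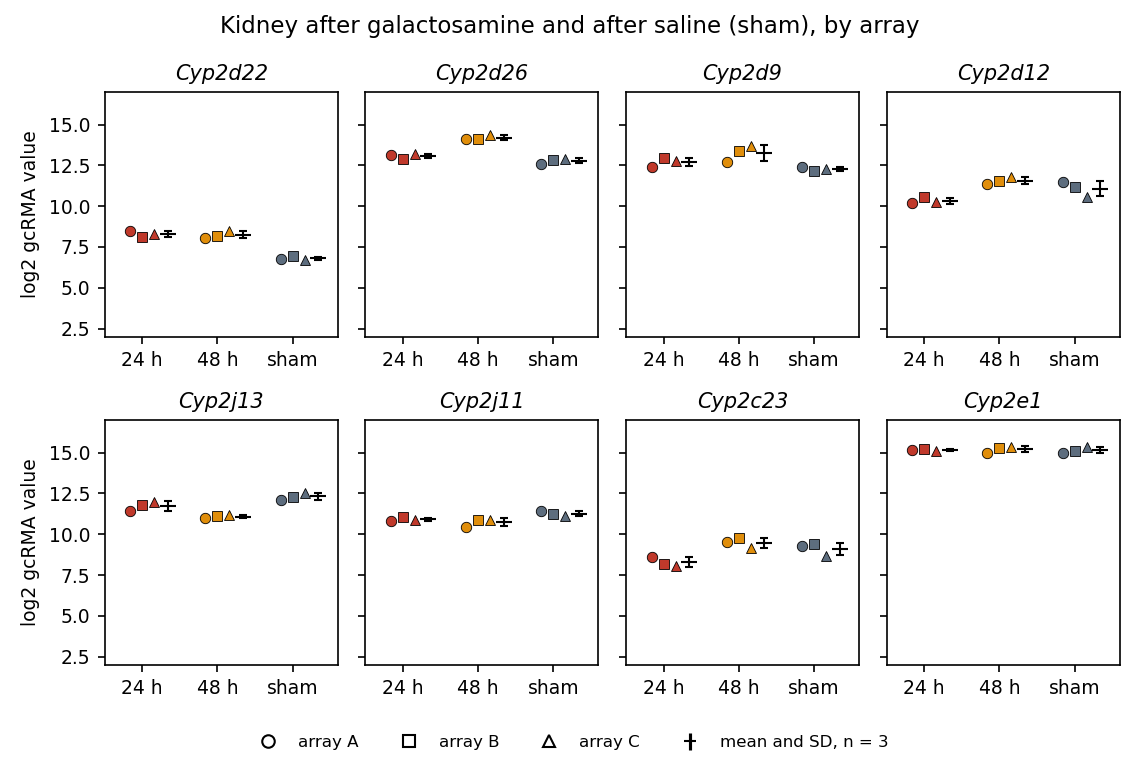
Log2 gcRMA values of 8 members in the kidney at 24 h, at 48 h and in sham, 1 symbol per array, with the mean and SD of 3 arrays as a bar. Cyp2d22 is higher at both times, Cyp2d26 is highest at 48 h, Cyp2j13 is lowest at 48 h, and Cyp2e1 stays between 15.00 and 15.35.

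Several other kidney members differed without being called. Cyp2d9 read 12.41, 12.95 and 12.78 at 24 h, 12.72, 13.40 and 13.67 at 48 h and 12.40, 12.18 and 12.28 in sham, all treated arrays being above sham, and its 48 h difference was 0.97 (limma adjusted p = 0.0877). Cyp2d12 read 10.18, 10.56 and 10.26 at 24 h, 11.37, 11.57 and 11.76 at 48 h and 11.48, 11.16 and 10.58 in sham, lowest at 24 h, with 1.23 between 48 h and 24 h (adjusted p = 0.0546). Cyp2c23 read 8.62, 8.18 and 8.07 at 24 h, 9.51, 9.76 and 9.14 at 48 h and 9.26, 9.38 and 8.66 in sham, and again differed by 1.18 between 48 h and 24 h (adjusted p = 0.0721). Both were thus low at 24 h and near sham at 48 h. Cyp2j5 was lower by -0.30 at 24 h (adjusted p = 0.067) and by -0.26 at 48 h (adjusted p = 0.119), and its dimmer set was lower by -0.79 at 24 h (adjusted p = 0.0247 over all sets). Cyp2e1 differed by 0.00 and 0.05.

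Of 10 proximal tubule markers none was called at 24 h by limma. At 48 h Cubn was higher by 0.61 and Slc22a6 lower by -0.55 (20% of the list, against 2.69% of all genes). Mean levels of the list were 13.71 to 13.87 at 24 h, 13.90 to 14.03 at 48 h and 13.84 to 14.02 in sham. The distal nephron markers Atp6v1b1 and Scnn1b were higher by 1.20 and 1.48 at 24 h, and Atp6v1b1 by 1.54 at 48 h. Of 7 distal nephron markers 2 were higher at 24 h (28.6%) and 1 at 48 h (14.3%). Of all genes 5.31% were called at 24 h, 2.21% as higher, and 2.69% at 48 h, 1.29% as higher. Their median differences were 1.04 and 0.98, against 0 over all genes, and their mean levels of 11.48 to 11.85 at 24 h and 11.30 to 11.63 at 48 h lay above the 10.44 to 10.89 of sham kidneys. Their part in the kidney results was not tested. Of the redox list 1 of 5 was higher and 2 lower at 24 h (Cyb5a by -0.33, Cyb5b by -0.57 and Ephx1 by 1.06; 60%, against 5.31% of all genes) and none was called at 48 h. None of the 12 haem genes, 12 receptors or 15 liver-enriched factors tested was called in kidney at either time.

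Whether kidney and liver responded differently was tested as the kidney difference minus the liver difference, over 29 members tested in both organs. At 24 h 3 members were called, all in the positive direction (10.3%, against 31.3% of 11662 genes, 14.2% positive and 17.1% negative, limma). At 48 h 13 were called, 12 positive and 1 negative (44.8%, against 13.4% of all genes, 4.58% positive and 8.83% negative). The positive calls include Cyp2c37, Cyp2c50, Cyp2c70 and Cyp2g1, which were at the floor in every kidney array and so repeat the liver difference. The negative call, Cyp2j13, had liver readings at or near the floor. The 44.8% is therefore not a share of members read well in both organs. A positive value means that the kidney value moved up relative to the liver value. The members' median was 0.23 at 24 h and 0.44 at 48 h, and the median of all genes -0.02 and -0.04. Without liver 48 h array C the counts were 5 and 12.

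For Cyp2d22 the difference between the organs was 1.77 at 24 h (kidney 1.50, liver -0.27, limma adjusted p = 3.65e-05) and 1.86 at 48 h (adjusted p = 1.95e-04). For Cyp2d26 it was 1.69 at 48 h (kidney 1.42, liver -0.26, adjusted p = 2.14e-04), and for Cyp2d9 1.30 (kidney 0.97, liver -0.33, adjusted p = 0.00892). These 3 CYP2D genes thus lay higher than sham in kidney and a little below it in liver, although the Cyp2d9 change was called in neither organ. For Cyp2j5 the difference was 1.46 at 48 h (kidney -0.26, liver -1.72, adjusted p = 0.00344), and for Cyp2c23 1.69 (kidney 0.37, liver -1.32, adjusted p = 0.00855). Cyp2j13 gave the negative value, -0.96 (kidney -1.23, liver -0.28, adjusted p = 0.0237), with liver readings at or near the floor. Cyp2c37, Cyp2c50, Cyp2c70 and Cyp2g1 were at the floor in every kidney array, so these values come from the liver readings.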

How the data were processed

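Per the labels, RNA of each liver and kidney sample was labelled in 1 cycle and read on a single-colour Affymetrix mouse array. The deposited log2 values were made by the authors with gcRMA, which corrects background, normalizes between arrays and summarises the probes of a set, per the series' design text; the software version is not given in the sources used here. Such values have no counts or depth, so the number of arrays limits their precision, and so do readings near the floor. The labels can be read as saying that RNA of 3 mice was pooled for each array or that each array holds 1 mouse, so p-values measure only the spread between these arrays, and it is not stated that a letter marks the same animal in liver and kidney. Of 45101 probe sets, 34945 named 1 gene, 932 several and 9160 none here, and 34741 of the 34945 matched the RefSeq gene table by Entrez number.

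The brightest set over all arrays stood for each gene. Within each organ, genes above the array median in at least 3 of 9 arrays were fitted by group with limma 3.58.1 in R 4.3.3 (empirical Bayes with an intensity trend), and p-values were adjusted by Benjamini-Hochberg over all genes tested. Both organs were fitted together for comparisons between them. All adjusted p-values are two-sided and come from this model across all genes. In simulated data built on these arrays, only a small share of genes was changed, always upward and at 24 h. There, 39% of liver genes changed by 1 and 77% of those changed by 2 on the log2 scale were called. In kidney the values were 59% and 92%. In the real liver data 32.9% of genes were called at 24 h, so these rates may not carry over. Members of every list were described by counts and medians. Named in full were members changed at least 2-fold in liver, members within 2-fold at both times and members called in kidney, and up to 3 called genes of each list. The members and lists were chosen with earlier results of these data known. Alternatives covered the filter, normalization, choice of probe set, moderation, array weights, a rank product, the letter as a block and leaving out each array. Promoters came from RefSeq GRCm38.p6 and figures from matplotlib 3.10.9.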

Additional observations from a re-analysis of the deposited data

Results flagged for a closer look

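For 16 values the kidney difference from sham and the liver difference from sham were unequal by the test of the difference itself (limma, adjusted over all genes tested in both organs). Each value is the kidney difference minus the liver difference on the log2 scale, and no explanation was tested.

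At 24 h the value was 1.77 for Cyp2d22 (kidney 1.50, liver -0.27, adjusted p = 3.65e-05). For Cyp2j6 it was 0.82 (kidney 0.25, liver -0.57, adjusted p = 0.0141), and the second set of Cyp2j6 was not called in liver, with a difference of -0.09. For Cyp2r1 it was 3.51 (kidney 0.00, liver -3.51, adjusted p = 3.76e-04), with kidney readings of 2.81 to 3.99 that include repeated values.

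At 48 h the CYP2D values were 1.86 for Cyp2d22 (kidney 1.45, liver -0.42, adjusted p = 1.95e-04), 1.69 for Cyp2d26 (kidney 1.42, liver -0.26, adjusted p = 2.14e-04) and 1.30 for Cyp2d9 (kidney 0.97, liver -0.33, adjusted p = 0.00892). Among members lower in liver, Cyp2j5 gave 1.46 (kidney -0.26, liver -1.72, adjusted p = 0.00344), Cyp2c23 1.69 (kidney 0.37, liver -1.32, adjusted p = 0.00855), Cyp2a12 0.82 (kidney 0.21, liver -0.61, adjusted p = 0.00668) and Cyp2f2 1.99 (kidney 1.13, liver -0.85, adjusted p = 0.00991). Cyp2c70 gave 1.66 (liver -1.59, adjusted p = 0.00431), Cyp2c50 0.85 (liver -0.81, adjusted p = 0.00432), Cyp2c37 0.59 (liver -0.51, adjusted p = 0.0486) and Cyp2g1 1.57 (liver -1.58, adjusted p = 0.0315), all at the floor in every kidney array. Cyp2j6 gave 0.74 (kidney 0.10, liver -0.64, adjusted p = 0.0463), but its second set read the other way (kidney -0.08, liver 0.37), and with the mean of its sets the call was lost (adjusted p = 0.707). Cyp2j13 gave -0.96 (kidney -1.23, liver -0.28, adjusted p = 0.0237). Leaving out 1 of the 18 arrays at a time, the call stood in 3 fits for Cyp2c37, 5 for Cyp2j6 at 48 h, 8 for Cyp2g1 and 15 for Cyp2j13, and in all 18 for the others.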

How the results depend on the processing

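With 3 arrays a group, counts of members called moved with the settings. The absence of higher members in liver did not hold everywhere: at 24 h 2 were higher with array weights and by rank product, and 1 with all 18 arrays, with the filter at a value of 5 or without 48 h array C, and at 48 h 1 was higher with array weights, with all 18 arrays, by rank product or without 24 h array C. In liver at 24 h the count of 8 became 3 with no filter, 15 with array weights, 4 with the array letter as a replicate block and 2 to 10 with 1 array left out. At 48 h the count of 10 became 21 with array weights and 6 to 13 with 1 array left out, and between 48 h and 24 h the count of 12 became 7 with the replicate block and 7 with only the 6 arrays compared. For kidney at 24 h the count of 1 became 3 with a filter at a value of 5, chosen after seeing the data, 2 with the mean of all sets, 2 after centring, 4 with array weights, 10 by rank product and 1 to 3 with 1 array left out. At 48 h the count of 3 became 7 with array weights, 11 by rank product and 1 to 4 with 1 array left out. Between 48 h and 24 h in kidney the count of 1 became 2 with the filter at percentile 60, 3 with the filter at 5, 3 after quantile normalization, 3 after centring, 2 with the robust option, 4 with array weights, 0 with the replicate block, 2 with all 18 arrays, 10 by rank product and 0 to 3 with 1 array left out. For kidney minus liver at 24 h the count of 3 became 6 after centring, 12 with array weights and 3 to 5 with 1 array left out. The share of all genes called under each setting is not given here, so these shifts cannot be told from shifts over all genes. The cause of these shifts was not tested. The counts for kidney minus liver at 48 h (9 to 16), sham liver against sham kidney (29 to 35) and members within 2-fold at 24 h (15 to 19) and at 48 h (11 to 18) stayed within 1.5 times of the reported ones under every setting run.

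Of 2086 alternative values for 81 single calls, 1884 kept direction and call, 201 kept direction only and 1 reversed: Cyp2j5 between 48 h and 24 h in liver, at 0.76 with the mean of its sets. The letters A to C were not used to pair the samples in the reported fits. In no pair of groups did all 3 same-letter correlations of deviations exceed 0.1, a rule that cannot exclude shared animals. The highest were 0.242, 0.035 and 0.274 for A, B and C between sham liver and sham kidney. With the letter as a block the counts not given above were 8 for liver at 48 h, 1 and 2 for kidney at 24 h and 48 h, 4 and 12 for kidney minus liver at 24 h and 48 h, 29 between sham organs, and 18 and 14 within 2-fold. Readings near the floor limit Cyp2j13, Cyp2g1 and Cyp2c55 in liver and most members in kidney.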

Other observations

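Of 25 P450 genes outside families 1 to 3 tested in liver, 1 rose and 5 fell at 24 h (24%, below the 32.9% of all genes), with a median difference of -0.03, and 3 rose and 6 fell at 48 h (36%, against 10.2%), with a median of 0.00. Named are the 3 genes with the smallest adjusted p at each time, and 3 with larger differences chosen after their values were seen. Cyp8b1, which directs bile acid synthesis to cholic acid, averaged 4.24 at 24 h, 11.54 at 48 h and 13.14 in sham livers. Cyp4f15 averaged 9.996 at 24 h, 11.41 at 48 h and 11.39 in sham, so both were low at 24 h and higher again at 48 h. Cyp51, a demethylase of cholesterol synthesis, averaged 8.91, 8.80 and 11.49 in the same order of groups and was low at both times. Cyp17a1, a steroid hydroxylase, differed by -6.65 at 24 h, and at 48 h Cyp4a31 differed by 3.12 and Cyp7b1, an oxysterol hydroxylase, by -2.27. Cyp4f14 was lower by -1.62 at 48 h, and Cyp4f16 was higher by 1.13, with 24 h and sham means of 2.39 and 2.37 at the floor. In kidney 1 of 24 rose and 1 fell at 24 h (8.33%, against 5.31%), and 1 rose at 48 h (4.17%, against 2.69%, 1.29% as higher). Cyp4a14, a fatty acid hydroxylase and target of PPAR alpha, was higher by 3.62 at 24 h (limma adjusted p = 0.0254) and by 4.61 at 48 h (adjusted p = 0.0234).

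The disagreement between the Cyp2j5 probe sets was set beside all genes read by a bright set (sham liver mean of at least 13) and a dim set (8 to 12). Cyp2j5 is itself counted among these genes. Among genes for which either set differed from sham by at least 1, the dim set moved further than the bright set in 32 of 36 genes at 24 h, with median sizes of 1.43 and 1.14, and in 23 of 25 genes at 48 h, with median sizes of 1.36 and 1.01. The sets had the same sign in 34 of 36 and 24 of 25 genes.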
